A study of Homo sapiens with 4 samples.

Results

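Kinesins are motor proteins that walk along microtubules or take them apart at their ends. The genes described here are the kinesin genes and the genes of the centromere proteins (CENP), chosen by symbol: a name that starts with KIF and a digit, KIFC and a digit, or CENP and a letter, among rows typed as mRNA. This gave 61 genes of the 40205 listed, of which 19784 were typed as mRNA. They were split into 14 mitotic kinesins, 28 transport and other kinesins, and 19 centromere proteins. The kinesins were split by known role and the CENP genes were taken by symbol. *CENPE*, itself a kinesin, is thus among the CENP genes. *KIF2A*, a relative of the mitotic *KIF2C*, was placed with the transport and other kinesins.

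Their RNA was measured in 4 RNA-seq libraries of lung cancer cells, 24 h after transfection with negative control siRNA (NC, 2 libraries) or with siRNA against the circular RNA circZFR (si-circZFR, 2 libraries). The labels give no other treatment, and both groups went through the transfection. The question was which mRNAs differ once the circle is silenced. The gene-level values do not measure the circle, so its silencing could not be checked here. The sample labels name the line H1299, while the series text names A549. Of genes known as high in A549, the detoxifying enzymes *AKR1B10*, *AKR1C1*, *AKR1C2*, *ALDH1A1* and *ALDH3A1* lay between 505 and 1747 RPKM. *CDH1*, taken as low or absent in H1299, was present at 7.70 to 23.6 RPKM. *FGB* and *FGG*, also taken as A549 markers, lay only between 0.761 and 6.10 RPKM. *VIM*, taken as a marker of H1299, lay between 555 and 601 RPKM. The enzymes and *CDH1* thus went with A549, while *FGB*, *FGG* and *VIM* did not point to it. The libraries are named by their siRNA only. Of 7 markers of immune, endothelial and stromal cells, *PTPRC*, *DCN* and *LUM* were at 0 in all 4 libraries, and the lysosomal gene *CD68* was the highest at 61.1 to 79.5 RPKM. The libraries held 11040050 to 12816868 reads.

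Mitotic kinesins build the bipolar spindle, bring chromosomes to its middle and organise the midzone where the cell divides, and their RNA is made mainly in G2 and mitosis. Transport kinesins carry vesicles, organelles and RNA in cells at any stage of the cycle. Most CENP proteins build the centromere and the kinetochore that joins each chromosome to the spindle. *CENPJ*, *CENPV* and *CENPBD1*, counted here by symbol, were set apart as having other roles. Many G2/M genes carry in their promoters a CCAAT box, bound by NF-Y, and a CHR element, bound by the LIN54 subunit of the MuvB core. In bulk samples, fewer dividing cells and less RNA per dividing cell cannot be told apart.

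The 100 bases before the annotated start site show this layout. They are given 5′ to 3′ on the strand of the gene from RefSeq (GRCh38.p14), with the CCAAT box (CCAAT, or ATTGG on the other strand) and the CHR-like letters (TTTGAA or TTCGAA, or TTCAAA on the other strand) in capitals. The first set holds the 7 mitotic kinesins with the most reads among those whose 2 si-circZFR libraries both lay below both NC libraries: KIF4A (chrX:70290004-70290103, plus strand), KIF18A (chr11:28108157-28108256, minus strand), KIF23 (chr15:69414249-69414348, plus strand), KIF11 (chr10:92593030-92593129, plus strand), KIF22 (chr16:29790651-29790750, plus strand), KIF20A (chr5:138179012-138179111, plus strand) and KIF2C (chr1:44739737-44739836, plus strand).
KIF4A: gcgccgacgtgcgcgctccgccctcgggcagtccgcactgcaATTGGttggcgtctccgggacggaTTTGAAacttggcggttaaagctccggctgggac
KIF18A: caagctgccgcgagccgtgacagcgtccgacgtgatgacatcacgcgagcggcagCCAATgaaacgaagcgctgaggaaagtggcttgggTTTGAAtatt
KIF23: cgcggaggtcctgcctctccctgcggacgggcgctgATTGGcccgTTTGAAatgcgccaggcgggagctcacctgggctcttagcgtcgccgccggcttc
KIF11: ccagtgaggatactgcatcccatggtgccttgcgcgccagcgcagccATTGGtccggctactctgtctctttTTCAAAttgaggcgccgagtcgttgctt
KIF22: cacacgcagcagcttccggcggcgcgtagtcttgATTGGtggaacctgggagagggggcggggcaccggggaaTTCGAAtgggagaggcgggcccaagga
KIF20A: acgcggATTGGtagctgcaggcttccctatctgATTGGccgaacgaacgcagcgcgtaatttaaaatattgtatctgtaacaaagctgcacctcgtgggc
KIF2C: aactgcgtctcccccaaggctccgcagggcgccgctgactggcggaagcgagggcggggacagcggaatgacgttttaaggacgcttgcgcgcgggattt

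*KIF4A*, *KIF18A*, *KIF23*, *KIF11* and *KIF22* hold both motifs within these bases, with the CCAAT box farther from the start site. *KIF20A* has the CCAAT box at 2 places and no CHR-like letters in the 300-base window that was searched (250 bases before to 50 after the start). *KIF2C* has neither in that window. For comparison, the next lines give CENPA (chr2:26785956-26786055, plus strand). CENPA also holds the CCAAT box in that window, at positions -205 and -130 from the start site, before the bases shown. The transport kinesins KIF1C (chr17:4997850-4997949, plus strand) and KIF3B (chr20:32277551-32277650, plus strand) follow, which had the smallest p values of their class.
CENPA: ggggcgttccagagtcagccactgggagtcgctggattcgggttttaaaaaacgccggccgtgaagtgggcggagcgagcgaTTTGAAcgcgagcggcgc
KIF1C: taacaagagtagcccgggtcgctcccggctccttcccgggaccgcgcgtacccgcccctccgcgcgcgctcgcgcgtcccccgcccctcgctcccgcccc
KIF3B: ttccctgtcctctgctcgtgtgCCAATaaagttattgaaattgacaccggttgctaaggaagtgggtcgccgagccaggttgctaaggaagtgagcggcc

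Both strands of every window were searched, and neither motif contains the letters of the other. Of all 35116 promoters in the table, 16.4% held CHR-like letters, 34.6% a CCAAT box and 6.4% both. Of the 14 mitotic kinesins, 11 held CHR-like letters in a promoter, 11 a CCAAT box and 10 both. Of the 20 transport and other kinesins with a promoter in the table, 2 held CHR-like letters and 7 a CCAAT box. Of the 14 centromere proteins with a promoter, 6 held CHR-like letters, 8 a CCAAT box and 5 both. A gene can have several promoters in the table, so the gene shares are not on the same footing as the promoter shares. A match describes letters only.

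Of the 61 genes, 55 reached a CPM of at least 1 in at least 2 libraries, from reads recovered from the values, and were tested. *KIF2B*, a mitotic kinesin, and *KIF19* were at 0 in all libraries. *KIF25* was at 0.111 RPKM in NC 1, 0.240 RPKM in si-circZFR 2 and 0 in the others. *KIF26B* was at 0.0229 RPKM in NC 1 only, and *KIF6* at 0.0196 RPKM in NC 2 only. *KIF5A*, the neuronal kinesin heavy chain, lay between 0.112 and 0.212 RPKM. The other values are RPKM after scaling between libraries (scaled RPKM), and log2 fold changes (log2FC, si-circZFR over NC) are on the scale of log2(scaled RPKM + 1), which understates the change of low genes.

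No kinesin or CENP gene was called at FDR under 0.05 and |log2FC| over 1 by limma, against 1.18% of the 14815 genes tested (175 genes, 61 of them higher in si-circZFR). By limma-voom on reads recovered from the values, 3 were called (*CENPM*, *KIF1C* and *KIFC2*), against 2.47% of all genes under that fit. With values scaled to the library total alone, 244 genes were called, 153 of them higher. At FDR under 0.05 with no fold limit, 1 of the 55 passed, against 1.32% of all genes. An unadjusted limma p under 0.05 was found for 8 of the 55 that were lower in si-circZFR, where the share over all genes was 11.9%, and for 5 that were higher, where it was 10.6%. The 2 groups of libraries did not overlap for 17 lower and 15 higher genes of the 55, against 28.1% and 27.8% of all genes. The counts over all 55 were thus near the background, and the classes differed in direction.

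**Figure D1:**
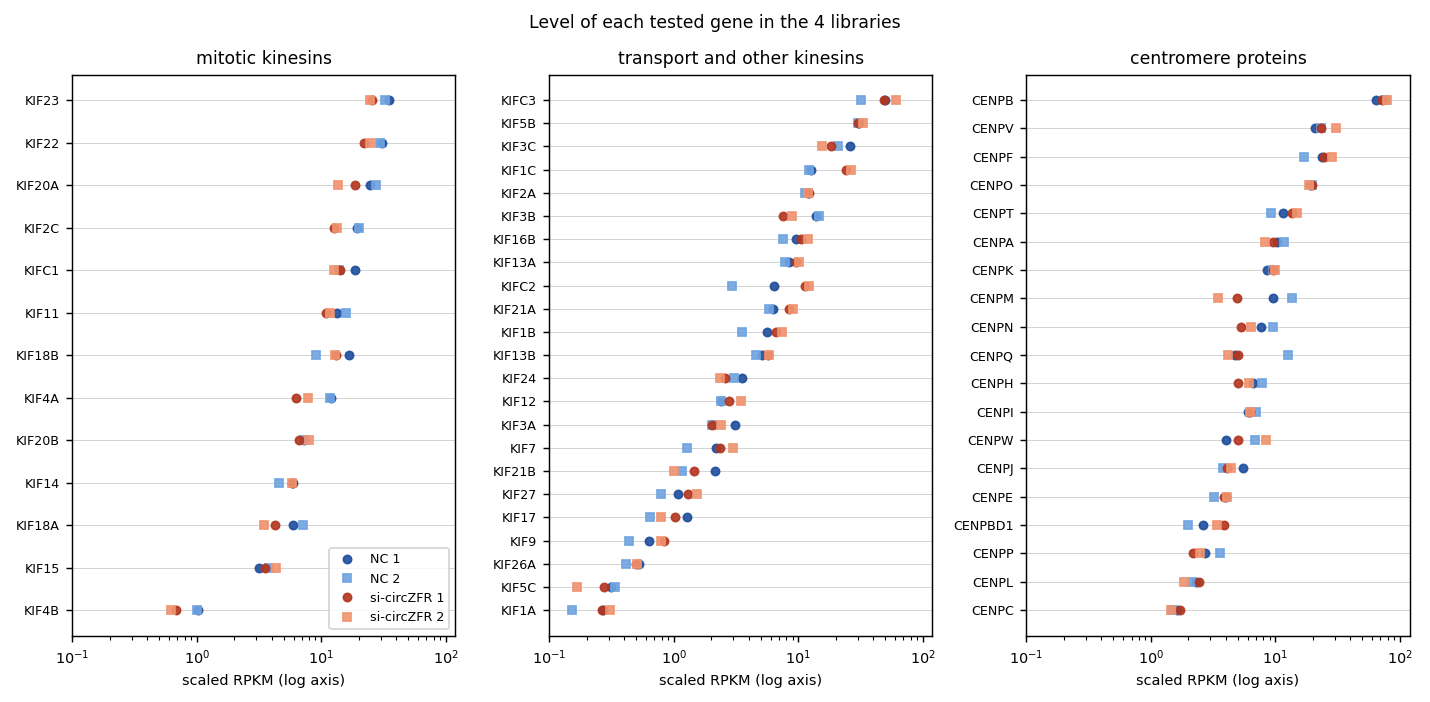
Scaled RPKM on a log axis of the 55 tested genes in each of the 4 libraries, 1 panel per class, with genes ordered by mean level; blue marks are NC and red marks si-circZFR. Red marks lie left of blue ones for 8 of the 13 tested mitotic kinesins, and right of them for 11 of the 23 transport and other kinesins.

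Most mitotic kinesins were lower in si-circZFR. Of the 13 tested, 9 had a negative log2FC, 5 of them with an unadjusted p under 0.05, and no mitotic kinesin was higher at that level. The shares of all genes with such a p were 11.9% lower and 10.6% higher. For 8 of the 13, both si-circZFR libraries lay below both NC libraries, against 28.1% of all genes. The 8 include *KIF4A* and its near-identical copy *KIF4B*, which may not be independent. *CENPE* and *KIF2A*, placed outside this class, had log2FC of 0.11 and 0.051 and overlapping groups. The median log2FC of the mitotic kinesins was -0.33, against 0.0034 for all genes tested. Setting each si-circZFR library against each NC library in turn gave 4 medians from -0.37 to -0.31, whereas NC 2 differed from NC 1 by a median of -0.0083 and si-circZFR 2 from si-circZFR 1 by 0.016. The summed level of the class was 194 and 185 scaled RPKM in NC and 145 and 144 scaled RPKM in si-circZFR.

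Among the motors that bind chromosome arms, *KIF4A*, which also shortens the spindle midzone with PRC1, was at 11.9 and 11.8 scaled RPKM in NC and 6.25 and 7.83 scaled RPKM in si-circZFR. Both si-circZFR libraries lay well below the NC ones, which were nearly equal, and the log2FC was -0.68 (standard error 0.18, 95% interval -1.12 to -0.25, FDR = 0.103). *KIF22*, the chromokinesin Kid, was at 31.1 and 29.8 scaled RPKM in NC and 22.1 and 24.7 scaled RPKM in si-circZFR, without overlap (log2FC -0.37, FDR = 0.242). *KIF4B* is a near-identical copy of *KIF4A*, so reads of both may be split between them. It was at 1.02 and 1.01 scaled RPKM in NC and 0.685 and 0.624 scaled RPKM in si-circZFR.

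Among the motors that act on microtubule ends, *KIF2C*, a depolymerase that corrects wrong attachments, was at 19.3 and 20.3 scaled RPKM in NC and 12.7 and 13.4 scaled RPKM in si-circZFR. The groups were apart by more than their own spread, with means of 19.8 ± 0.683 and 13.1 ± 0.511 scaled RPKM (SD, n = 2 each) and a log2FC of -0.56 (standard error 0.16, FDR = 0.114). *KIF18A*, which damps chromosome movements at the metaphase plate, was at 5.98 and 7.13 scaled RPKM in NC and 4.25 and 3.45 scaled RPKM in si-circZFR (log2FC -0.64, standard error 0.19, FDR = 0.126). Its relative *KIF18B* did not share the pattern. It was at 16.7 and 9.10 scaled RPKM in NC, a wide spread that enclosed the 13.1 and 13.0 scaled RPKM of si-circZFR (log2FC 0.074). Leaving out NC 2 gave a log2FC of -0.34, and leaving out NC 1 gave 0.48.

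Among the midzone and cytokinesis motors, *KIF20A*, which carries the chromosomal passenger complex to the midzone, was at 24.5 and 27.6 scaled RPKM in NC and 18.7 and 13.7 scaled RPKM in si-circZFR (log2FC -0.66, standard error 0.20, FDR = 0.124), and the log2FC was -0.44 without si-circZFR 2. *KIF23*, the motor of centralspindlin, had the highest level of the class, 35.0 and 32.7 scaled RPKM in NC and 25.8 and 24.9 scaled RPKM in si-circZFR. The groups did not overlap, and the log2FC was -0.40 (standard error 0.16, FDR = 0.199). *KIF14* and *KIF20B*, both needed late in cytokinesis, had log2FC of 0.14 and 0.0039, and their groups overlapped. Without NC 2, that of *KIF14* was -0.025, and without NC 1 it was 0.29.

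Of the motors that set spindle length, *KIF11*, the target of the drug monastrol, which pushes the poles apart, was at 13.3 and 15.9 scaled RPKM in NC and 10.95 and 11.86 scaled RPKM in si-circZFR. The lowest NC value was above the highest si-circZFR value, though the 95% interval of the log2FC of -0.33 reached from -0.74 to 0.088 (FDR = 0.314). Without NC 2 the log2FC was -0.21. *KIF15*, which can stand in for *KIF11*, had a log2FC of 0.13, with overlapping groups. *KIFC1*, the minus-end motor that gathers poles, had a log2FC of -0.25, with 14.0 scaled RPKM in NC 2 just below the 14.1 scaled RPKM of si-circZFR 1. Its log2FC was 0.074 with the length correction. That correction used a recovered length of 902 bases, against 2391 bases for the annotated transcript.

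The CHR-like letters did not separate the kinesins that were lower from those that were not. They were in the promoters of 6 of the 8 mitotic kinesins with both si-circZFR libraries below both NC libraries, and of all 5 with overlapping groups (*KIF14*, *KIF15*, *KIF18B*, *KIF20B* and *KIFC1*). The CCAAT box was in 7 of the 8 and 4 of the 5.

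**Figure D2:**
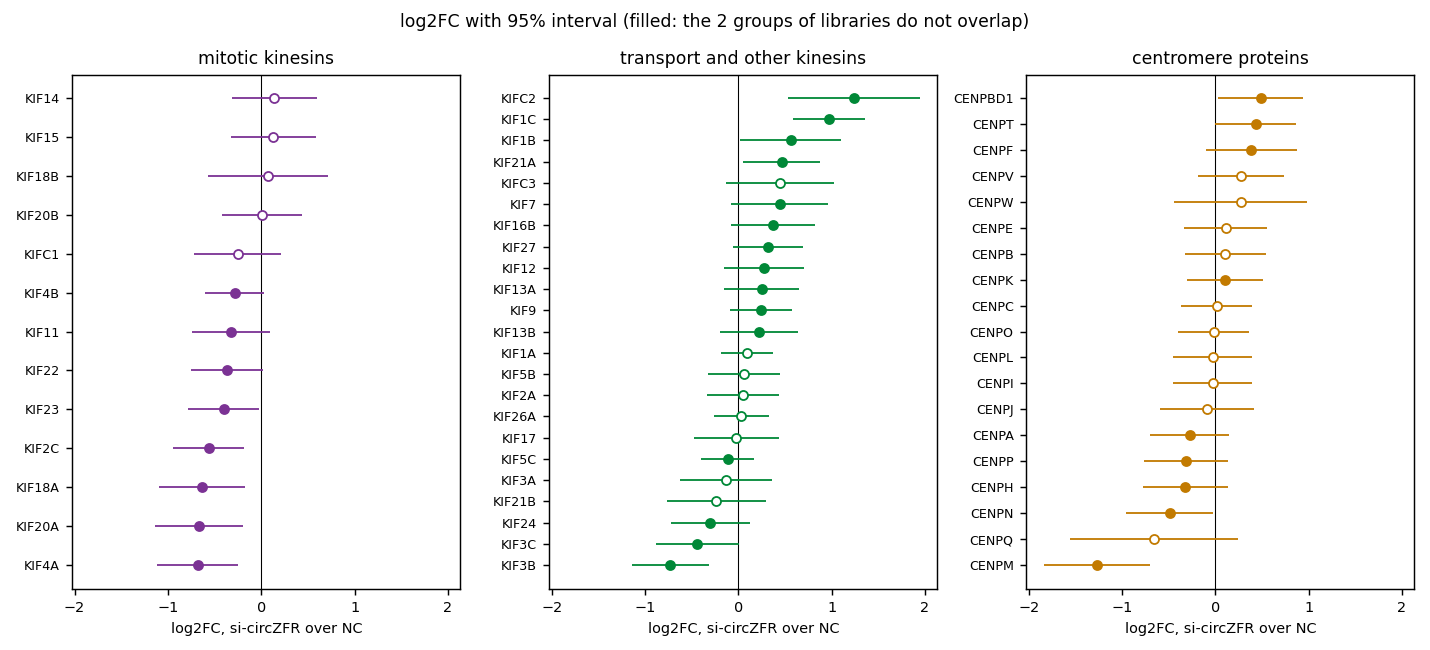
log2FC (si-circZFR over NC) of each tested gene with its 95% interval from limma, by class; filled circles mark genes whose 2 groups of libraries do not overlap. The mitotic kinesins run from -0.68 (KIF4A) to 0.14 (KIF14), while the other classes have wide tails on both sides of 0.

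The transport and other kinesins leaned the other way. Of the 23 tested, 16 had a positive log2FC, 4 with an unadjusted p under 0.05, and 7 a negative one, 1 with such a p. The shares of all genes with such a p were 10.6% higher and 11.9% lower. Groups did not overlap for 11 higher and 4 lower genes, against 27.8% and 28.1% of all genes. The median log2FC was 0.22, and 0.025 to 0.29 for each si-circZFR library against each NC library. This class also differed within NC: NC 2 was below NC 1 by a median of 0.17 on the log2 scale (median difference -0.17), and si-circZFR 2 above si-circZFR 1 by 0.096. After a correction for gene length the median was 0.090. The medians of the mitotic kinesins and of the transport and other kinesins differed by -0.55. Under the other settings and with each library left out, the difference was -0.39 to -0.66.

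*KIF1C*, which carries dense-core vesicles, integrins and mRNA, was the gene that passed FDR under 0.05. It was at 12.6 and 12.3 scaled RPKM in NC and 24.1 and 26.6 scaled RPKM in si-circZFR. Both si-circZFR values lay far above both NC values, with means of 12.5 ± 0.247 and 25.3 ± 1.79 scaled RPKM (SD, n = 2 each), a ratio of 2.03. The log2FC was 0.97 (standard error 0.16, 95% interval 0.58 to 1.35, FDR = 0.0493), and the FDR ran from 0.020 to 0.333 over the other settings, with the log2FC between 0.84 and 1.15. Its relative *KIF1B*, which moves mitochondria and synaptic vesicle precursors, was at 5.58 and 3.53 scaled RPKM in NC and 6.68 and 7.45 scaled RPKM in si-circZFR (log2FC 0.56, standard error 0.23, FDR = 0.208). The log2FC was 0.29 without NC 2 and 0.83 without NC 1. The NC libraries differed more from each other than NC 1 did from si-circZFR 1. *KIF1A*, the neuronal member, lay between 0.152 and 0.308 scaled RPKM.

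*KIFC2*, a minus-end motor of dendrites, was at 6.37 and 2.95 scaled RPKM in NC and 11.3 and 12.2 scaled RPKM in si-circZFR. The log2FC was 1.24 (standard error 0.30, FDR = 0.0866), and it was 0.79 without NC 2 and 1.69 without NC 1. *KIFC2* shares 17.8% of its exon bases with a gene on the other strand, and whether the counting used strand is not given in the sources used here. Of the 60 kinesin and CENP genes found in GENCODE, 10 share over 10% of their exon bases in this way. *KIFC3*, which works at cell junctions and the Golgi, had the highest level of all kinesins. It was at 49.46 and 32 scaled RPKM in NC and 49.26 and 60.72 scaled RPKM in si-circZFR, so the groups overlapped (log2FC 0.45, FDR = 0.320). The log2FC was 0.14 without NC 2 and 0.75 without NC 1.

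In the heterotrimeric kinesin-2 family, which serves cilia and organelles, 2 of the 3 motor subunits had lower values in both si-circZFR libraries. *KIF3B* was at 14.0 and 14.7 scaled RPKM in NC and 7.55 and 8.99 scaled RPKM in si-circZFR. Its groups were far apart relative to their spread, with a log2FC of -0.73 (standard error 0.17, 95% interval -1.14 to -0.32, FDR = 0.0858). *KIF3C* was at 26.0 and 21.0 scaled RPKM in NC and 18.5 and 15.6 scaled RPKM in si-circZFR (log2FC -0.44, FDR = 0.225). *KIF3A*, the partner of both, had overlapping groups and a log2FC of -0.13, which was 0.083 without NC 1. The adaptor *KIFAP3* was at 2.70 and 3.41 scaled RPKM in NC and 3.94 and 4.06 scaled RPKM in si-circZFR (log2FC 0.31, FDR = 0.363).

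The conventional kinesin heavy chain *KIF5B* had overlapping groups. It was at 30.9 and 30.0 scaled RPKM in NC and 30.3 and 33.3 scaled RPKM in si-circZFR, with a log2FC of 0.058 and a 95% interval from -0.33 to 0.44. *KIF21A*, which limits microtubule growth at the cell cortex, was at 6.32 and 5.86 scaled RPKM in NC and 8.45 and 9.10 scaled RPKM in si-circZFR, without overlap (log2FC 0.46, standard error 0.17, FDR = 0.182). Over the cargo-carrying core of the class (KIF1, KIF3, KIF5, KIF13, KIF16B, KIF17 and KIF21), 14 genes were tested with a median log2FC of 0.073. Over the other 9 tested it was 0.27, with 8 of the 9 positive.

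The CENP genes showed no common direction. Of the 19 tested, 10 had a negative and 9 a positive log2FC, with a median of -0.019. An unadjusted limma p under 0.05 was found for 2 lower genes and 1 higher gene, against 11.9% and 10.6% of all genes. Groups did not overlap for 5 lower and 4 higher genes, against 28.1% and 27.8% of all genes. The summed level was 216 and 240 scaled RPKM in NC and 223 and 243 scaled RPKM in si-circZFR.

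*CENPM*, a subunit of the inner kinetochore network that folds like a small GTPase, had the lowest log2FC of all 55 genes. The gene lies at chr22:41938737-41947152 (GRCh38, GENCODE v44). It was at 9.52 and 13.6 scaled RPKM in NC and 4.96 and 3.46 scaled RPKM in si-circZFR, and si-circZFR was at 36.4% of the NC mean. The log2FC was -1.27 (standard error 0.24, 95% interval -1.84 to -0.70), with an FDR of 0.0580 that ran from 0.020 to 0.324 over the other settings. *CENPN*, which reads the CENP-A nucleosome, was at 7.74 and 9.61 scaled RPKM in NC and 5.33 and 6.40 scaled RPKM in si-circZFR (log2FC -0.49, FDR = 0.200). It shares 12.6% of its exon bases with a gene on its own strand and 10.5% with one on the other.

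Other members of the network had other patterns. *CENPT*, which reaches to the outer kinetochore, was at 11.6 and 9.18 scaled RPKM in NC and 13.63 and 14.97 scaled RPKM in si-circZFR (log2FC 0.43, FDR = 0.227, and log2FC 0.27 without NC 2). Of its exon bases, 20.2% are shared with genes on the other strand. *CENPQ* had a log2FC of -0.66 that rested on NC 2: it was at 12.6 scaled RPKM there, and at 4.76, 5.04 and 4.18 scaled RPKM in NC 1, si-circZFR 1 and si-circZFR 2. *CENPC*, *CENPI*, *CENPL* and *CENPO* had log2FC between -0.029 and 0.012, with signs that turned when a library was left out. Over the 12 network genes tested, 8 had a negative log2FC, and the median was -0.029. Of the 8, 2 had an unadjusted limma p under 0.05, against 11.9% of all genes that were lower at that level.

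At the centromeric chromatin, *CENPA*, the histone H3 variant that marks the centromere, was at 10.3 and 11.7 scaled RPKM in NC and 9.56 and 8.29 scaled RPKM in si-circZFR (log2FC -0.28, FDR = 0.392, and log2FC -0.17 without si-circZFR 2). *CENPB*, which binds alpha-satellite DNA, had the highest level of all 55 genes and overlapping groups. It was at 64.7 and 75.8 scaled RPKM in NC and 71.9 and 79.1 scaled RPKM in si-circZFR (log2FC 0.11).

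At the outer kinetochore, *CENPE*, itself a kinesin that moves chromosomes to the plate, was at 4.05 and 3.24 scaled RPKM in NC and 3.88 and 4.12 scaled RPKM in si-circZFR. Its log2FC was 0.11, with a sign that turned with the length correction (-0.019) and without NC 2 (-0.019). *CENPF*, a large protein of G2 and mitosis, was at 23.8 and 17.0 scaled RPKM in NC and 24.9 and 28.4 scaled RPKM in si-circZFR (log2FC 0.38, FDR = 0.317). The log2FC was 0.15 without NC 2, 0.61 without NC 1 and 0.24 with the length correction. *CENPV*, which binds microtubules, was at 20.7 and 23.5 scaled RPKM in NC and 23.4 and 30.8 scaled RPKM in si-circZFR, and *CENPBD1*, a gene with a CENPB-type DNA-binding domain, was at 2.65 and 1.97 scaled RPKM in NC and 3.85 and 3.37 scaled RPKM in si-circZFR (log2FC 0.48, FDR = 0.198).

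The log2FC of all genes followed gene length, which differs between the classes. Across the 14815 genes, which are not independent replicates, Spearman's rho of log2FC with length was 0.31. It was -0.39 for NC 2 minus NC 1 and 0.017 for si-circZFR 2 minus si-circZFR 1. NC 2 and NC 1 also enter the comparison itself. The median log2FC ran from -0.41 for genes under 1000 bases to 0.13 for those over 9000 bases. The median length was 4289 bases for the mitotic kinesins, 6116 bases for the transport and other kinesins and 2345 bases for the CENP genes. Set against the median of all genes in their own length bin, 10 of the 13 mitotic kinesins, 11 of the 23 transport and other kinesins and 11 of the 19 CENP genes lay below it. With the length correction the median log2FC of the mitotic kinesins was -0.38. Beyond this correction, the part of length in these results was not tested.

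**Figure D3:**
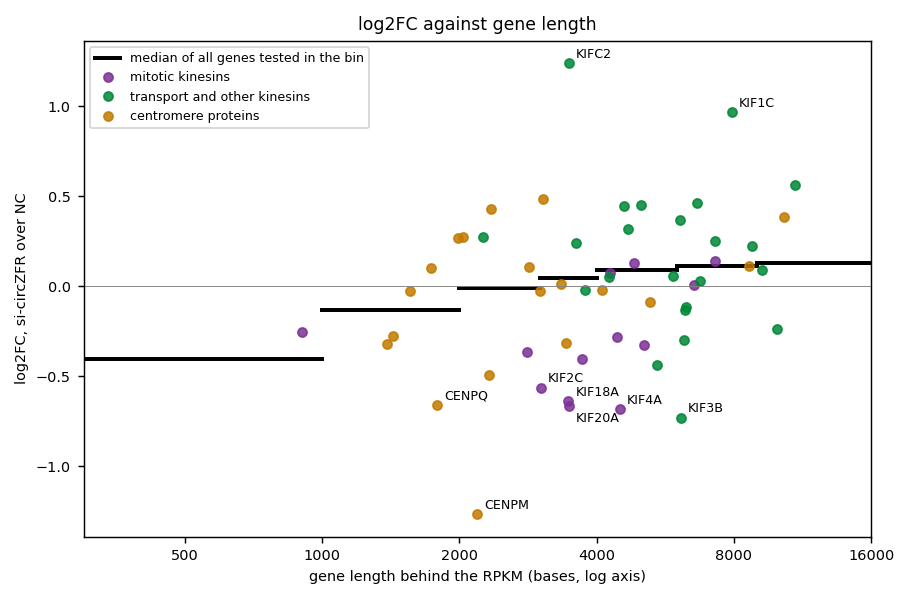
log2FC (si-circZFR over NC) of the 55 tested genes against the gene length behind the RPKM in bases (log axis), with black bars for the median of all genes tested in each of 7 length bins. The bars rise from -0.41 to 0.13, 10 of the 13 purple points (mitotic kinesins) lie below the bar of their bin, and KIFC2 and KIF1C lie far above theirs.

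The partners of these genes were counted from lists of known roles. Of 17 regulators and targets of G2/M transcription, 15 had a negative log2FC, with a median of -0.33. Of the 17, 6 were lower with an unadjusted limma p under 0.05 and none higher, against 11.9% and 10.6% of all genes. Those with the smallest p were *UBE2C*, the ubiquitin-conjugating enzyme of the anaphase-promoting complex, with a log2FC of -0.81 (FDR = 0.103), *PTTG1* (securin) with -0.62 and *FOXM1*, a factor that drives G2/M genes, with -0.51. Of 18 spindle and cytokinesis partners, 14 had a negative log2FC with a median of -0.25. At an unadjusted p under 0.05, 3 were lower and 1 higher, against the same 11.9% and 10.6%. NC 2 lay above NC 1 by a median of 0.14 in the G2/M list and 0.23 in the spindle list. Each si-circZFR library against each NC library gave medians from -0.50 to -0.25 for the G2/M list. For the spindle list they ran from -0.39 to -0.12. *RACGAP1*, the centralspindlin partner of *KIF23*, was at 28.7 and 36.0 scaled RPKM in NC and 23.3 and 22.2 scaled RPKM in si-circZFR (log2FC -0.48, FDR = 0.181). *CDCA8*, of the passenger complex carried by *KIF20A*, had a log2FC of -0.52, and *NUMA1*, which focuses the spindle poles, one of 0.68. *PRC1*, the partner of *KIF4A*, had one of 0.043.

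The 27 kinetochore and checkpoint genes went both ways, with a median of -0.11. At an unadjusted limma p under 0.05, 3 were lower and 3 higher, near the 11.9% and 10.6% of all genes. NC 2 lay above NC 1 by a median of 0.21. Each si-circZFR library against each NC library gave medians from -0.29 to 0.094. By limma, 2 of the 27 were called, against 1.18% of all genes. *MAD2L1*, the checkpoint protein that holds back anaphase, fell from 22.2 and 28.8 scaled RPKM in NC to 9.28 and 11.7 scaled RPKM in si-circZFR (log2FC -1.20, FDR = 0.0493). *ZW10*, which brings dynein to the kinetochore, rose from 2.60 and 2.26 scaled RPKM to 6.90 and 6.31 scaled RPKM (log2FC 1.15, FDR = 0.0458). *MAD1L1*, the kinetochore anchor of MAD2, was at 4.82 and 4.76 scaled RPKM in NC and 8.98 and 10.5 scaled RPKM in si-circZFR (log2FC 0.89, FDR = 0.0632).

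Of the 26 transport partners tested, the median log2FC was 0.096, and NC 2 lay above NC 1 by a median of 0.090. At an unadjusted limma p under 0.05, 2 were lower and 2 higher, against 11.9% and 10.6% of all genes. By limma, 1 of the 26 was called, against 1.18% of all genes. *BICD2*, the adaptor that links dynein to Rab6 vesicles, was called and rose from 3.76 and 2.65 scaled RPKM in NC to 10.3 and 14.6 scaled RPKM in si-circZFR (log2FC 1.67, FDR = 0.0449). *DCTN3*, a dynactin subunit, had a log2FC of -0.81, and the kinesin light chain *KLC4* one of 0.64 (FDR = 0.0969 and 0.112). The partners called, *MAD2L1*, *ZW10* and *BICD2*, were not called with NC 2 left out, which leaves NC 1 alone in its group.

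**Figure D4:**
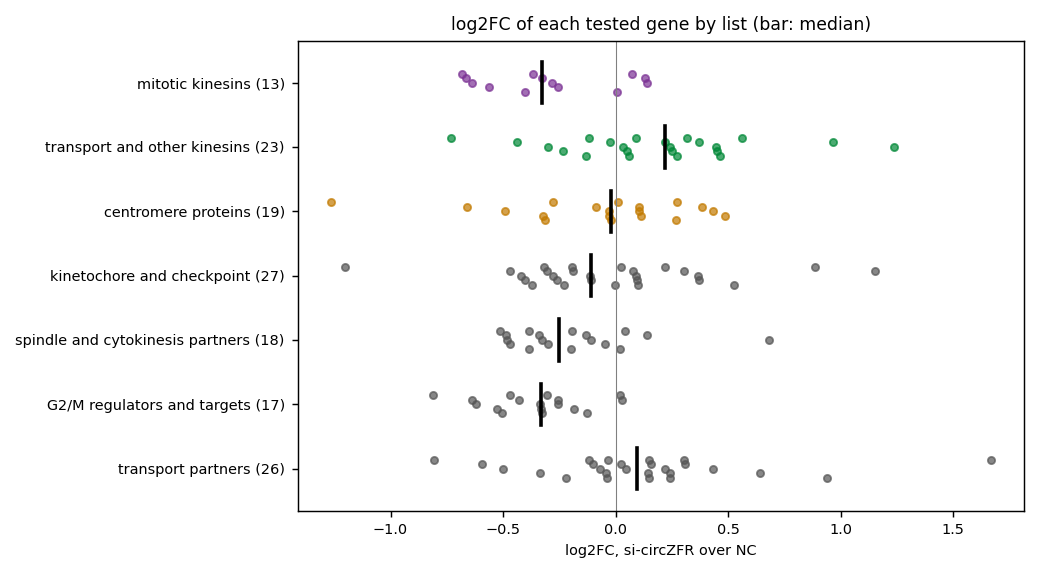
log2FC (si-circZFR over NC) of each tested gene in the 3 classes (coloured) and in 4 lists of partner genes (grey), with a black bar for the median of each. The medians of the mitotic kinesins (-0.33), of the G2/M regulators and targets (-0.33) and of the spindle and cytokinesis partners (-0.25) lie left of 0. That of the transport and other kinesins (0.22) lies right of 0.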

How the data were processed

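RNA levels were measured on the Ion Proton in 2 NC and 2 si-circZFR libraries, grouped by the treatment in the labels. The authors aligned the reads and deposited values in RPKM, reads divided by gene length and library total, for each gene; the paper names the build hg38 and the submitters' processing notes GRCh37, the counter is not given in the sources used here, and the paper states a surrogate variable correction and edgeR for its own calls. The labels do not say whether libraries came from separate cultures, so p-values cover only the spread between these samples. 

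Reads were recovered from the RPKM steps: 24282 of 24289 genes above 0 in any library gave whole reads (99.97%, tolerance 0.02). They summed to 98.4% to 98.6% of the library totals, served the filter, and gave gene lengths, which for 10 of 59 members were more than 1.5 times off the annotated transcript, among them *CENPM* and *KIFC1*. Libraries were brought to a common scale with trimmed log-ratio means that dropped 30% of ratios and 5% of levels at each end. Because the unit is RPKM, limma 3.58.1 in R 4.3.3 with a trended prior was run on log2(scaled RPKM + 1), over genes with a recovered CPM of at least 1 in at least 2 libraries, with Benjamini-Hochberg adjustment over 14815 genes. The fit and the recovery were tested on simulated data. A further marker of the cell line is not reported here. Called means FDR under 0.05 and |log2FC| over 1. Other scalings, filters and pseudocounts, a length correction, limma-voom, a replicate block and each library left out were tried.

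The classes, lists and tests were chosen with earlier results of these data known. Values per library are given for *KIF11*, *KIF20A*, *KIF23*, *KIF1B*, *KIF5B*, *CENPA*, *CENPE* and *CENPF*, for the 4 members of smallest p and the 3 of highest level in each class, and for each partner list the 3 genes of smallest p are named. *KIF18B*, *KIF4B*, *KIFC1*, *KIF14*, *KIF15*, *KIF20B*, *KIF2A*, *KIF3A* and *KIF1A* were named after their values were seen. So were *CENPC*, *CENPI*, *CENPL*, *CENPO*, *CENPQ*, *PRC1*, *KIFAP3* and the 6 genes not tested. Positions and exon overlaps are from GENCODE v44 and promoters from RefSeq, found for 48 of the 61 genes.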

Additional observations from a re-analysis of the deposited data

How the results depend on the processing

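The number of genes called over the whole table was 175 and was the value that changed most: 8 with a filter of RPKM of at least 1, 0 with no filter, 59 with a pseudocount of 0.1 RPKM, 366 with limma-voom on recovered reads, 46 with a constant prior variance, and 0 (without NC 2) to 982 (without NC 1) with each library left out. The labels give both groups the replicate numbers 1 and 2. Deviations of libraries with the same number correlated at 0.085, so the numbers were not used as pairs. With the replicate block, 287 genes were called, none of them a kinesin or CENP gene, and no call on these genes changed.

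By limma, none of the 55 kinesin and CENP genes was called. The library total and the upper quartile as scaling each gave 1 (*KIF1C*), where 244 and 128 of 14815 genes were called (1.65% and 0.864%). The FDR without a fold limit gave 1 (1.32% of all genes), limma-voom 3 (2.47%), mRNA rows only 2 (*CENPM* and *KIFC2*; 202 of 12339 genes, 1.64%), and leaving out a library 0 to 3 (*CENPM*, *CENPQ* and *KIFC2* without NC 1, where 6.78% of all genes were called). Those with an unadjusted p under 0.05 numbered 13, and 5 to 22 with a library left out.

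The median log2FC of the mitotic kinesins stayed negative in every setting. It was -0.18 with the library total, -0.27 with the upper quartile, -0.38 with the pseudocount of 0.1 RPKM, with the length correction and with limma-voom, -0.35 over mRNA rows, and -0.40 to -0.30 with a library left out. The library total moved the median of all genes to 0.15, and with it the log2FC of *KIF23* to -0.22, of *KIF22* to -0.18, of *KIF11* to -0.15 and of *CENPA* to -0.10. That of the transport and other kinesins was 0.064 with no filter, 0.090 with the length correction and 0.14 to 0.26 with a library left out. That of the CENP genes was 0.14 with the library total and -0.027 to 0.032 with a library left out. The medians of the mitotic and of the transport and other kinesins differed by -0.55. The difference was -0.39 with no filter and -0.65 with the pseudocount of 0.1 RPKM. It was -0.66 with limma-voom and -0.60 to -0.52 with a library left out.

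Of the 24 genes named by rule, the log2FC turned sign in some setting for *CENPE* (-0.019 with the length correction, -0.019 without NC 2), *KIF5B* (-0.046 with the length correction) and *CENPB* (-0.010 without NC 1). Of the other 31 tested, 16 turned sign in some setting, 13 of them with a library left out. With a library left out, *CENPV* ran from 0.091 to 0.47, *CENPE* from -0.019 to 0.23 and *CENPB* from -0.010 to 0.21. *KIF1C* lost FDR under 0.05 in 8 settings, among them each of 3 libraries left out (FDR = 0.104 without NC 2, 0.151 without si-circZFR 1 and 0.333 without si-circZFR 2). The cause was not tested. The 6 genes not tested had at most 14 reads in any library.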

Other observations

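The 7-base word CTGACTC was looked for in the 3′UTRs of the annotated transcripts, because in earlier results of these data genes with it were lower in si-circZFR. It was present in 1321 of 11294 tested genes with a 3′UTR (11.7%), whose median log2FC was -0.055 against 0.028 for the others. Of 54 kinesin and CENP genes it was present in 5: *CENPM* (log2FC -1.27), *KIF3B* (-0.73), *KIF21B* (-0.24), *CENPC* (0.012) and *KIF1B* (0.56). That is 9.3% of these genes, below the share over all genes, and their log2FC went both ways. The word was chosen on these libraries, and no test was run on it.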
